A study of Mus musculus with 5 samples.

Results

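Cdx2 and Gata2 are transcription factor genes of the trophectoderm, the outer layer of the blastocyst that forms the placenta. Both were followed here in mouse embryonic stem cells. They were taken by symbol from a table of read counts per exon bin. Bins are the pieces into which exons are cut at the edges that transcripts do not share. Cdx2 had 3 bins and Gata2 had 6, out of 243771 bins in the table. They are 2 of 10855 genes listed by symbol and 24538 genes in all. Wildtype cells gave 3 libraries (wildtype 1 to 3). Cells with the −45 super-enhancer deleted gave 2 (deleted 1 and 2), although the design text counts 3 per condition. No further deletion library was among the data used here. That super-enhancer is a cluster of enhancers named by its place relative to the pluripotency gene Nanog. All cells had 6 days of ethanol vehicle or 4-hydroxytamoxifen, and the labels do not say which library had which. They also do not name a strain, a clone or separate cultures, so the p-values below rest on a spread between libraries that may be technical.

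The trophectoderm arises when the outer cells of the early embryo switch on Cdx2, a caudal-type homeobox gene, under the control of the Hippo pathway factor Tead4 and of Notch signalling. Cdx2 and the pluripotency gene Pou5f1 repress each other, and forced Cdx2 turns embryonic stem cells into trophoblast stem cells. Gata2 encodes a zinc-finger protein that binds GATA motifs. It acts with Gata3 in trophoblast, where it activates placental hormone genes, and it is also a main regulator of blood stem cells. Later in development Cdx2 patterns the tail end of the body and the intestine. Cultured embryonic stem cells normally hold little RNA of either gene.

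The sequences before the start sites are shown because both genes were lower in the deleted cells. They are the 250 bases before the RefSeq start of Cdx2, on the minus strand at chr5:147307250-147307499, and before the upstream start of Gata2, on the plus strand at chr6:88193641-88193890 (build GRCm38.p6, 5′ to 3′). Capitals mark matches to 9 short motifs searched on both strands. 
Cdx2: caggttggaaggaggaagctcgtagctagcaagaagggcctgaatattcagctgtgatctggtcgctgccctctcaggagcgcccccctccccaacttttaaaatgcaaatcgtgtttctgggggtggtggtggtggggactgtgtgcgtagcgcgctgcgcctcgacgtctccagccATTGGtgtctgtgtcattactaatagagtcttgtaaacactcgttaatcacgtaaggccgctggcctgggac
Gata2: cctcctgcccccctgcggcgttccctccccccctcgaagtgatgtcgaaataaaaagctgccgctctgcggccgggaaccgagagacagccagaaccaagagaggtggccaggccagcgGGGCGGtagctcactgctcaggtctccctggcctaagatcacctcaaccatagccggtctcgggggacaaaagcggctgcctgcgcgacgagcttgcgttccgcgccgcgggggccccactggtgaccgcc
The Cdx2 window held 1 CCAAT match, on the opposite strand 68 to 72 bases before the start. The Gata2 window held 1 GGGCGG match, 126 to 131 bases before the start. Of 32851 promoter windows of the same length in the RefSeq table, 33.8% held CCAAT and 32.7% held GGGCGG, so both matches are common. The other 7 motifs had no match in these 2 windows. They were the core promoter element TATAAA, which 12.4% of all windows held, and 2 forms of the motif bound by Gata2 and its relatives, AGATAA in 9.99% and then TGATAA in 7.94%. The Cdx2-family motif TTTATG was held by 10.8% of windows and the Tead-family motif GGAATG by 12.6%. For the Notch effector Rbpj the letters were TGGGAA, held by 21.6%, and the E-box CACGTG was held by 6.02%. G and C made up 55.2% of the Cdx2 window and 67.2% of the Gata2 window, against a median of 52.4%. Gata2 has a second RefSeq start, whose window, not printed here, held 2 GGGCGG matches, 2 CCAAT matches and 1 GGAATG match and was 74% G and C.

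Gata2 was lower in both deleted libraries than in any wildtype library. Its bins summed to 223, 219 and 398 counts in wildtype 1, 2 and 3, and to 112 and 92 counts in deleted 1 and 2. Scaled by library size to CPM, the usual depth-scaled unit of counts, these were 1.79, 1.92 and 1.84 CPM in wildtype and 1.20 and 0.929 CPM in the deleted cells. The wildtype libraries lay close together, and deleted 1 was nearer to them than deleted 2 was. The means were 1.85 ± 0.0624 CPM (SD, n = 3) and 1.06 ± 0.192 CPM (SD, n = 2). The log2 fold change, deleted minus wildtype, was −0.80 ± 0.15 (SE; 95% interval −1.13 to −0.47; edgeR adjusted p = 0.00256), or 1.74-fold lower. In all tested settings Gata2 stayed past the threshold of adjusted p under 0.05, with log2 fold changes from −0.99 without deleted 1 to −0.64 without deleted 2.

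Cdx2 was also lower in both deleted libraries, but on far fewer counts. It had 29, 20 and 53 counts in wildtype 1, 2 and 3, which is 0.233, 0.175 and 0.245 CPM. It had 4 counts (0.0429 CPM) in deleted 1 and 13 counts (0.131 CPM) in deleted 2. Deleted 1 was the lowest library, and deleted 2 stood just under wildtype 2. The exact Poisson 95% interval, which covers counting error only, was 0.0699 to 0.224 CPM in deleted 2 and 0.107 to 0.270 CPM in wildtype 2. These 2 intervals overlap over most of their length, so at this depth the gap between those libraries is within counting error. The interval of deleted 1, 0.0117 to 0.110 CPM, lay below those of wildtype 1 and wildtype 3 and overlapped those of wildtype 2 and deleted 2. As a read that crosses bins can count in each, these intervals may be too narrow. Means were 0.218 ± 0.0375 CPM in wildtype (SD, n = 3) and 0.0870 ± 0.0625 CPM in deleted cells (SD, n = 2).

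The Cdx2 log2 fold change was −1.32 ± 0.43 (SE; 95% interval −2.30 to −0.34; edgeR adjusted p = 0.0385), or 2.50-fold lower. The call depended on single libraries. Without deleted 1 the log2 fold change was −0.75 (edgeR adjusted p = 0.260), and without deleted 2 it was −2.36 (edgeR adjusted p = 0.0268). Without wildtype 1 it was −1.31 (edgeR adjusted p = 0.0737), and DESeq2 gave −1.33 (adjusted p = 0.0534). Cdx2 reached the low-count minimum of 10 counts at the median depth (0.0871 CPM) in all 3 wildtype libraries but in only 1 of the 2 deleted ones. It was therefore tested through the wildtype group alone, the group in which it was high. Gata2 passed that minimum in all 5 libraries.

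**Figure D1:**
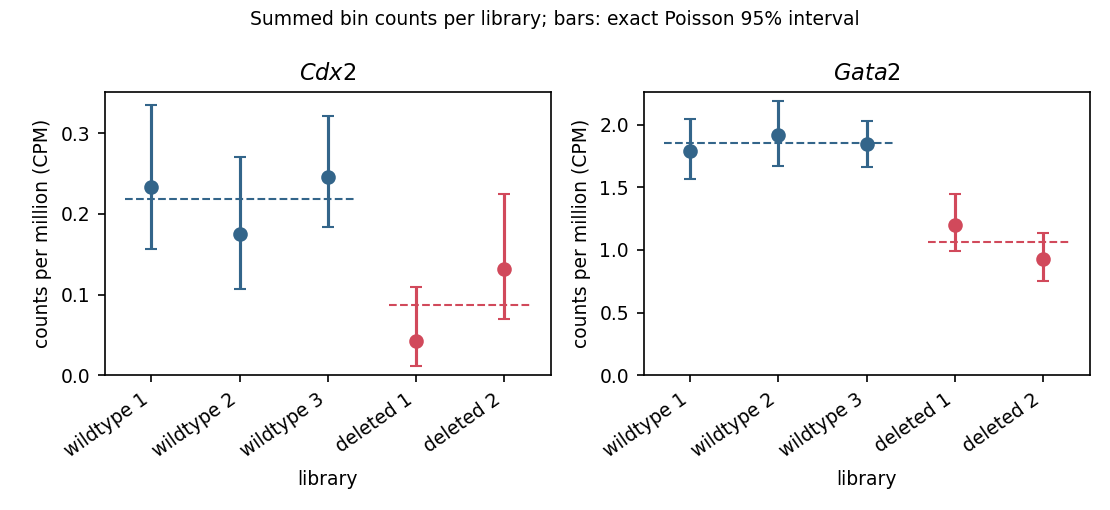
Level of Cdx2 (left) and Gata2 (right) in CPM in each of the 5 libraries, on separate linear axes from 0. Points are summed bin counts, bars are exact Poisson 95% intervals, and dashed lines are group means. The deleted libraries sit below all wildtype libraries for both genes, at 0.0429 and 0.131 CPM for Cdx2 and at 1.20 and 0.929 CPM for Gata2.

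Neither gene stood at an extreme among the 3591 tested symbols. Of these, 32.1% passed the threshold, 13.1% as lower and 19% as higher, and of all genes 39.7% did, so that a call alone sets no gene apart. In 24.2% of tested symbols both deleted libraries lay below all wildtype libraries, as they did for Cdx2 and Gata2, and in 57% the groups did not overlap in one or the other direction. Gata2 stood at the 83.2nd percentile of level among tested symbols, and 10.7% of symbols had a more negative log2 fold change. Symbol rows were low, with a median log2 CPM of −1.12 against 3.46 for all tested genes. At 0.66, Gata2 lay below the latter median. Cdx2 stood at the 26.7th percentile of level, and 3.48% had a more negative one. A smaller p was found for 9.08% of symbols than that of Gata2 and for 29.3% than that of Cdx2. The median log2 fold change of tested symbols was 0.07.

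**Figure D2:**
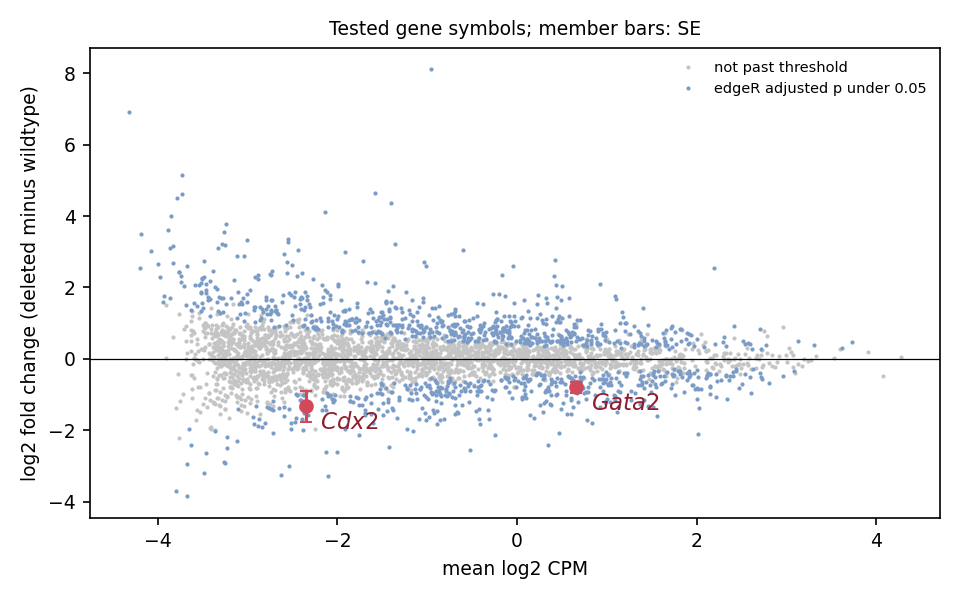
Log2 fold change (deleted minus wildtype) against mean log2 CPM for the 3591 tested symbols, with Cdx2 and Gata2 in red and bars of 1 SE. Among these symbols, Cdx2 lies with those of low level and wide scatter, at −1.32, and Gata2 with those of higher level, at −0.80.

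Total bin counts were 114838600 to 213042746 in wildtype and 93574609 and 99134363 in the deleted libraries. Depth therefore moved with the groups, and its part in the Cdx2 result was not tested. One count was worth 0.00463 to 0.0107 CPM. Symbol rows held 0.328% to 0.375% of the counts, most of the rest being under assembly IDs that the table does not pair with symbols. Reads of Cdx2 or Gata2 may also lie under such an ID. Of the wildtype libraries, the third was both deepest and least like the rest (chi-square per degree of freedom 93.4 and 87.4 against wildtype 1 and 2, and 9.96 between those). Without wildtype 3 the log2 fold changes were −1.21 for Cdx2 (edgeR adjusted p = 0.0460) and −0.81 for Gata2 (edgeR adjusted p = 0.000573). None of 10 pluripotency genes looked up, Nanog, Pou5f1 and Sox2 among them, had a symbol row. Neither the cell type nor the deletion could thus be checked in the table.

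The 2 genes were not shown to have changed by different factors. Cdx2 counts came to 13%, 9.13% and 13.3% of Gata2 counts in wildtype 1, 2 and 3, against 3.57% in deleted 1 and 14.1% in deleted 2. Deleted 2 thus had the highest ratio of the 5 libraries and deleted 1 the lowest. In log2 CPM the difference Cdx2 minus Gata2 was −3.01 ± 0.286 in wildtype (SD, n = 3) and −3.53 ± 1.20 in deleted cells (SD, n = 2). On that scale, with a prior count of 2, the groups differed by −0.52, with an exact two-sided permutation p = 0.7 over 10 splits, where 0.1 is the smallest p possible. Without deleted 1 the difference turned to 0.32. In bulk RNA, fewer cells that express a gene and less RNA per cell cannot be told apart.

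All 6 bins of Gata2 had a lower mean in the deleted cells. Bin 6, the most counted, had 108, 112 and 233 counts in wildtype and 62 and 49 in deleted 1 and 2. The mean was 0.975 ± 0.105 CPM in wildtype (SD, n = 3) and 0.579 ± 0.120 CPM in deleted cells (SD, n = 2). Over all bins tested, bin 6 passed at edgeR adjusted p = 0.0210, with a log2 fold change of −0.76 and an SE of 0.19. Bin 1 had 28, 23 and 31 counts in wildtype and 7 in each deleted library. Bin 1 passed as well, at −1.34 ± 0.39 (edgeR adjusted p = 0.0396). These were the 2 of 6 bins past the threshold, beside 4.78% of all tested symbol bins called lower. Both calls ended without deleted 1, without deleted 2 and without wildtype 2, and that of bin 1 also without wildtype 1 (edgeR adjusted p = 0.0557 to 0.206 for bin 6 and 0.0880 to 0.200 for bin 1).

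The other 4 Gata2 bins had log2 fold changes of −0.67 (bin 2), −0.66 (bin 3), −1.10 (bin 4) and −0.57 (bin 5), with edgeR adjusted p from 0.0988 to 0.391. Bin 4 passed without wildtype 3 (−1.48; edgeR adjusted p = 0.0286). Bins 1, 3, 5 and 6 had no overlap between the groups, where 19.8% of tested symbol bins had both deleted libraries lowest. Bin 3 held 39, 35 and 77 counts in wildtype and 18 and 22 in the deleted libraries. Bins 2, 4 and 5 held 12 to 22 counts in wildtype and 3 to 10 in the deleted libraries, where deleted 2 had the fewest in each. In bin 4 wildtype 3, with 14 counts from the deepest library, fell below deleted 1 in CPM (0.0648 against 0.0750).

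No shift in how Gata2 counts were divided among its bins passed the test. Bin 6 held 52.7% ± 5.23 of the gene's counts in wildtype (SD, n = 3) and 54.3% ± 1.48 in deleted cells (SD, n = 2), and bin 3 held 17.6% ± 1.69 and 20.0% ± 5.54. The share of bin 1 was 12.6%, 10.5% and 7.79% over the wildtype libraries, while deleted 1 had 6.25% and deleted 2 had 7.61%, so that both deleted libraries were lower, by little against wildtype 3. The test of exon usage compares each bin's change with that of the whole gene, and for Gata2 gave edgeR adjusted p = 1.0. Exon usage was called in 0.127% of 1572 tested symbols. The table gives no positions for bins, and GENCODE vM21 has 2 alternative first exons for Gata2. Which of them bin 1 covers was not analysed here.

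Each of the 3 Cdx2 bins had a lower mean in the deleted cells. Bin 1 had 18, 14 and 28 counts in wildtype and 1 and 8 in deleted 1 and 2. At −1.48 ± 0.56 this bin missed the threshold (edgeR adjusted p = 0.0922), though it passed without deleted 2 (−3.52; 0.0434) and without wildtype 3 (−1.50; 0.0461). Bin 3 had 9, 5 and 19 counts in wildtype and 3 and 4 in the deleted libraries, and bin 2 had 2, 1 and 6 counts against 0 and 1. Those 2 bins were under the low-count minimum, so that exon usage of Cdx2 could not be tested. Deleted 1 held its 4 counts as 1 in bin 1 and 3 in bin 3, the reverse of the order in the other 4 libraries. A shift of that kind is not readable from 4 counts.

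**Figure D3:**
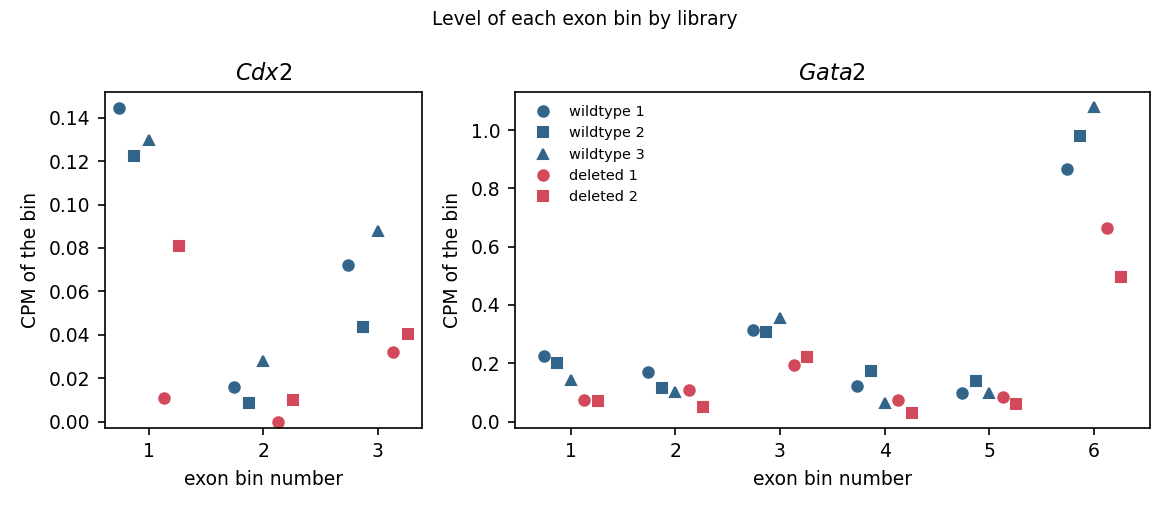
CPM of each exon bin of Cdx2 (left) and Gata2 (right) in the 5 libraries, with wildtype in blue and deleted in red, on separate linear axes. All 9 bins have a lower mean in the deleted cells, and in bin 6 of Gata2 the deleted libraries are at 0.664 and 0.495 CPM.

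Levels can be set against other family members only per exon length, here as CPM per kilobase of GENCODE exons. On this scale Gata2 was at 0.502 ± 0.0169 in wildtype (SD, n = 3) and 0.289 ± 0.0521 in deleted cells (SD, n = 2). Gata1, a regulator of red cells, was at 0.455 ± 0.0293 and 0.620 ± 0.134. Gata2 was thus the higher of the pair in each wildtype library, by little in wildtype 1 (0.487 against 0.469), and Gata1 in each deleted one. Whether the gaps between Gata1 and Gata2 exceed counting error was not tested. The order in wildtype went on with Gata4 at 0.209, Gata6 at 0.163, Cdx4 at 0.113, Cdx2 at 0.0963, Gata3 at 0.0418 and Gata5 at 0.00223. Cdx2 and Cdx4 did not differ beyond their spread there, at 0.0774 to 0.108 and 0.106 to 0.125. In the deleted cells Cdx2 was at 0.0190 and 0.0580 and Gata3 at 0.0333 and 0.0408, so these could not be ordered. The lengths come from another annotation than the counts, which limits comparisons between genes but not between groups.

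Of the 12 listed Cdx and Gata family genes and GATA cofactors, 8 had rows and 7 were tested, and Cdx2 and Gata2 were the 2 that passed, both lower. Of the 5 tested without them, 0 were higher and 0 lower, where 32.1% of all tested symbols were called either way. Cdx2 and Gata2 were chosen with earlier results of these data known, so their own calls are no result about the family. The paralog Cdx4, which acts with Cdx2 in the tail bud, had 26, 24 and 53 counts in wildtype and 21 and 11 in deleted libraries. Cdx4 did not pass, at −0.43 ± 0.34 (edgeR adjusted p = 0.357). Gata3, the partner of Gata2 in trophoblast, had 9, 13 and 47 counts against 10 and 13 and did not pass at −0.28 ± 0.51 (edgeR adjusted p = 0.692). The intervals, −1.20 to 0.35 for Cdx4 and −1.44 to 0.87 for Gata3, include changes as large as that of Gata2. Gata1 had 0.45 ± 0.17 (edgeR adjusted p = 0.0619). It did pass when deleted 2 was left out (0.64; 0.0406) or its most counted bin stood for the gene (0.80; 0.00670). Gata4 and Gata6, regulators of primitive endoderm, had −0.02 and −0.24. Whether Cdx2 or Gata2 differed from these paralogs in their change was not tested.

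Among 26 listed trophectoderm regulators, 15 of 16 with rows were tested. With Cdx2 and Gata2, 6 were lower, 3 were higher and 6 did not pass. Without these 2 genes, 4 of 13 were lower and 3 higher, against the 13.1% and 19% of all tested symbols. The median log2 fold change of the 15 was −0.28, and −0.12 without Cdx2 and Gata2. Fgfr2, the receptor through which FGF4 keeps trophoblast stem cells dividing, fell by 1.34 ± 0.14 on the log2 scale (SE; edgeR adjusted p = 0.000140). Gcm1, which drives labyrinth trophoblast formation, fell from 0.399 ± 0.0602 (SD, n = 3) to 0.135 ± 0.00900 CPM (SD, n = 2), and Ovol1, a zinc-finger gene of trophoblast and other epithelia, from 0.756 ± 0.0275 to 0.401 ± 0.0537 CPM. The homeobox gene Msx2 stood at −0.76 ± 0.21, which failed the threshold once deleted 1 or deleted 2 was removed (edgeR adjusted p = 0.0823 and 0.0898). Nr2f2 rose by 2.02 ± 0.39 on the log2 scale. Bmp8b, at 0.66 ± 0.15, also rose, a call lost without deleted 2, where it stood at 0.54 ± 0.20 (edgeR adjusted p = 0.0941). Nr2f2 was tested through the deleted libraries alone, and Cdx2 through wildtype alone. Without a low-count filter the counts were also 6 and 3. Elf5, a defining gene of trophoblast stem cells, had 2 to 7 counts in each library and was not tested, and Eomes and Tead4 had no row. The number of lower members was 4 to 6 when any 1 library was left out.

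**Figure D4:**
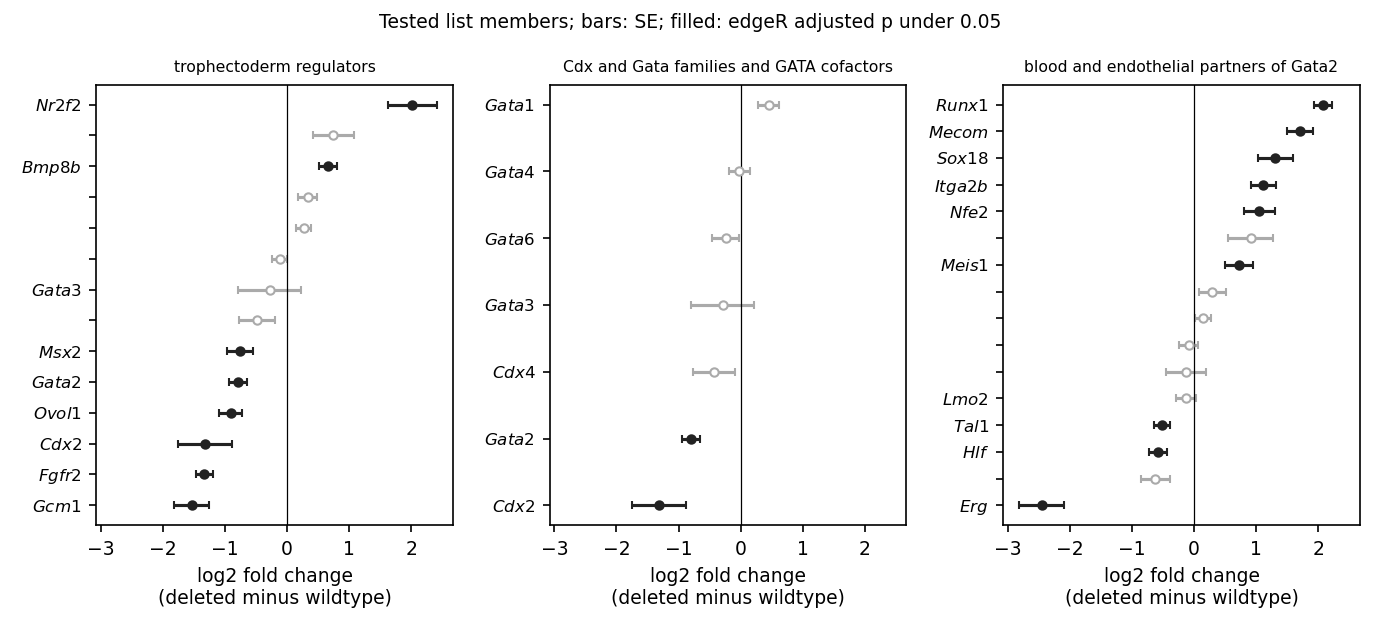
Log2 fold change (deleted minus wildtype) of tested members of 3 lists, with bars of 1 SE, names for the genes given in the text and 1 member left out, where filled points passed at edgeR adjusted p under 0.05. Cdx2 at −1.32 and Gata2 at −0.80 are the only filled points among the Cdx and Gata families, while the other 2 lists hold filled points on both sides of 0.

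Inputs to Cdx2 were represented by few rows. Of 20 Hippo and Notch genes, 4 were tested, and the Notch ligand gene Dll1 alone passed, falling by 1.49 ± 0.26 on the log2 scale (SE; edgeR adjusted p = 0.00222). A single call in 4 is near the 32.1% of all tested symbols. The Hippo genes Amot, Amotl1 and Tead3 had −0.09, −0.20 and 0.17 (edgeR adjusted p = 0.683, 0.632 and 0.496). BMP signalling, which induces Gata2, had 11 tested members. Of them Msx2, Chrd and Nog, the last 2 encoding BMP antagonists, were lower, while the receptor gene Bmpr1b, Smad9 and Hey1 were higher, 3 each way beside 13.1% lower and 19% higher among all tested symbols. Bmpr1b had 1.09 ± 0.12 (edgeR adjusted p = 0.000200), and Nog was tested through the wildtype libraries alone. Calls ended without deleted 1 for Nog, Chrd, Smad9 and Hey1 (edgeR adjusted p = 0.172, 0.125, 0.198 and 0.0935). They also ended without deleted 2 for Nog, Chrd and Hey1 (0.113, 0.127 and 0.174), without wildtype 1 for Nog and Hey1 (0.0676 and 0.0675), without wildtype 2 for Chrd (0.0887) and without wildtype 3 for Hey1 (0.0533). With the most counted bin in place of the gene, Smad9 and Chrd did not pass (0.373 and 0.345).

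Blood and endothelial genes with which Gata2 acts moved both ways. Of 16 tested, 6 were higher and 3 lower, beside 19% and 13.1% of all tested symbols. Tal1, whose protein binds DNA in a complex with GATA factors, had 279, 268 and 500 counts in wildtype and 166 and 142 in deleted libraries. Like Gata2 it was lower, by −0.52 ± 0.13 in log2 terms (edgeR adjusted p = 0.0114), but not past the threshold without deleted 2 (−0.39; 0.0957). Erg, an ETS factor gene, fell by 2.46 ± 0.36 on the log2 scale, though it reached the low-count minimum through wildtype alone. Runx1, the regulator of the first blood stem cells, went the other way, from 0.620 ± 0.0284 (SD, n = 3) to 2.62 ± 0.345 CPM (SD, n = 2; log2 fold change 2.08 ± 0.14; edgeR adjusted p = 1.85e-05). Mecom, Itga2b, Sox18, Nfe2 and Meis1 were the other higher members and Hlf the other lower one. Calls ended without deleted 2 for Sox18, Nfe2, Hlf and Meis1 (edgeR adjusted p = 0.0810, 0.0711, 0.0865 and 0.133), and for Meis1 also without deleted 1, wildtype 1 or wildtype 2 (0.136, 0.0811 and 0.0754). Meis1 stood at 0.14 on its most counted bin alone (edgeR adjusted p = 0.819), against 0.72 over all its bins, and DESeq2 did not call it (adjusted p = 0.0726). Lmo2, a bridging protein gene of the same complex, had −0.13 (edgeR adjusted p = 0.554).

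Caudal genes downstream of Cdx factors gave 1 higher and 3 lower of 14 tested, with fewer lower when deleted 1 was left out. Of all tested symbols 19% were higher and 13.1% lower, so these counts are near the background. Dll1, Wnt5a and Nkx1-2 were lower and Tbx6 higher. Wnt5a had −1.05 ± 0.22 and missed the threshold without deleted 1 (edgeR adjusted p = 0.0547). Nkx1-2 had −0.95 ± 0.25 and missed it when either deleted library was removed (edgeR adjusted p = 0.0787 and 0.0789). Tbx6 was tested through the deleted libraries alone. None of the 4 tested Hox genes, Hoxa7, Hoxa10, Hoxb7 and Hoxd13, passed, at edgeR adjusted p of 0.314 to 0.966. Of the trophectoderm's epithelial and cavity genes 1 of 5 tested was lower, beside 13.1% of all tested symbols. It was the sodium-glucose transporter gene Slc5a1, at −0.94 ± 0.11 (edgeR adjusted p = 0.000333). Krt7 and Krt19, keratin genes of trophectoderm, had −0.22 and 0.39 (edgeR adjusted p = 0.540 and 0.134).

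Of 36 differentiated trophoblast and placental genes with rows, 16 had no count in any library and 24 had fewer than 10 counts over all 5. The placental lactogen genes Prl3d1 and Prl3b1 and the syncytin gene Synb were at 0 throughout, which allows up to 3 counts, or 0.0139 to 0.0321 CPM, per library. The spongiotrophoblast gene Tpbpa had 1 count. Of 7 tested, 2 were lower and 5 did not pass, where 13.1% of all tested symbols were lower. The steroid synthesis gene Cyp11a1 had −0.89 ± 0.15 (SE; edgeR adjusted p = 0.00161), a call lost on its most counted bin alone (0.104). The protease gene Mmp9 had −0.57 ± 0.16 (0.0231), a call that ended without wildtype 1, wildtype 2, deleted 1 or deleted 2 (0.0533, 0.0663, 0.131 and 0.0805).

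Genes beside Cdx2 and Gata2 were also read. In GENCODE vM21 no other gene overlaps either of them. Within 500 kb of Cdx2, which belongs to the ParaHox cluster, Gsx1 of the same cluster had 46, 36 and 59 counts in wildtype and 26 and 20 in deleted libraries. Gsx1 did not pass, at −0.39 ± 0.27 (edgeR adjusted p = 0.286). Pdx1, the remaining ParaHox gene there, had 2 to 11 counts and was not tested, and the receptor genes Flt3 and Flt1 had −0.01 and 0.17 (edgeR adjusted p = 0.987 and 0.731). Near Gata2 the only tested symbol was Rab43, a membrane traffic gene. It had 149, 184 and 329 counts in wildtype and 86 and 104 in deleted libraries and was lower, at −0.55 ± 0.17 (edgeR adjusted p = 0.0297). Most neighbours had no symbol row and were not analysed here.

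The symbols whose profile over the 5 libraries was most like that of each gene were found by the distance between log2 CPM values centred on each gene's mean, among 3280 symbols. For Gata2 they were Slc34a3, a phosphate transporter gene, at a distance of 0.0485, Oas3 at 0.121, Ovol1 at 0.128, Kcng3 at 0.135 and Ildr2 at 0.169, where the median over all candidates was 1.15. Slc34a3 had 177, 175 and 321 counts in wildtype and 89 and 76 in the deleted libraries. For Cdx2 they were Slc39a8, a metal transporter gene, at 0.297, the homeobox gene Vax2 at 0.387, Ednrb at 0.389, Egfl6 at 0.422 and Myh8 at 0.427, against a median of 1.90. Egfl6 had 222, 170 and 348 counts in wildtype and 44 and 85 in deleted 1 and 2. Vax2, Ednrb and Myh8 had at most 35 counts in any library.

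Markers of other cell types moved with the groups. Of 8 tested fibroblast markers 5 were higher in the deleted cells (Col1a2, Pdgfrb, Col6a1, Col5a2 and Col6a2) and 0 lower, beside 19% of all tested symbols called higher. Col6a1, with 4, 3 and 10 counts in wildtype and 9 and 22 in deleted libraries, was tested through the deleted libraries alone, where it was high. The higher ones were 2 without deleted 1, 1 without deleted 2, and 0 of 3 tested when the most counted bin stood for each gene. The 15 markers with rows summed to 10.1 to 13.3 CPM in wildtype and 14.3 and 14.4 CPM in the deleted libraries, while Fap was at 0 in every library and Col3a1 had at most 4 counts. Of 11 primitive endoderm markers 3 were lower (Cubn, Sox7 and Pdgfra), and 2 without deleted 1, beside 13.1% of all tested symbols. The 14 with rows summed to 9.11 to 10.05 CPM in wildtype and 6.78 and 7.73 CPM in the deleted libraries, with Ttr at 0. Their part in the Cdx2 and Gata2 results was not tested.

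**Figure D5:**
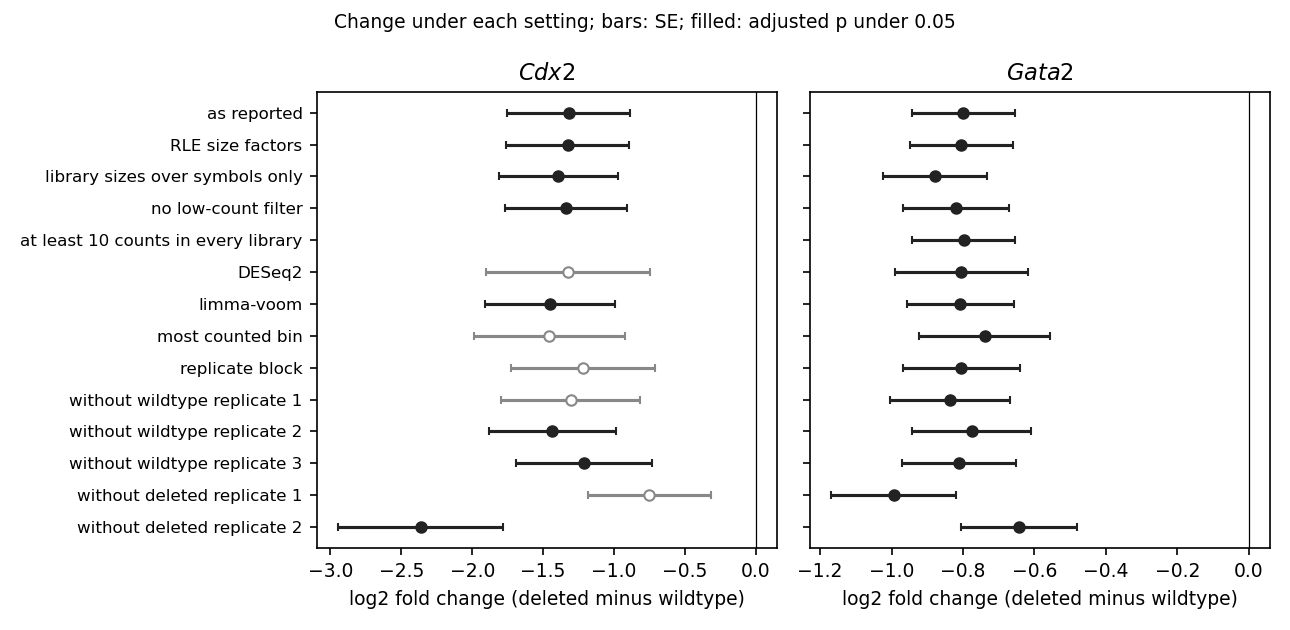
Log2 fold change (deleted minus wildtype) of Cdx2 (left) and Gata2 (right) under each setting, with bars of 1 SE, where filled points have adjusted p under 0.05. The 2 panels have different horizontal scales. Gata2 stays between −0.99 and −0.64 with all points filled, whereas Cdx2 runs from −2.36 without deleted 2 to −0.75 without deleted 1, with 5 open points.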

How the data were processed

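Polyadenylated RNA of mouse embryonic stem cells was sequenced in 5 libraries. The authors deposited raw read counts per DEXSeq exon bin, a name per the labels. The submitters' processing notes list STAR and mm9. For the annotation, the strand setting and the STAR version, the sources used here give nothing. Where bins are counted this way, a read that crosses bins can count in each. Without a stated strand, reads of antisense genes cannot be told apart.

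Bin counts were summed per gene, leaving out 56 spike-in names. Low counts were removed with filterByExpr, and the 16259 genes left went through TMM scaling and the quasi-likelihood F test of edgeR 4.0.16 (with limma 3.58.1, in R 4.3.3), with Benjamini-Hochberg adjustment and a threshold of 0.05. Bins were tested likewise, and exon usage with diffSpliceDGE. SE is the log2 fold change divided by the square root of F. Alternatives were other scalings and filters, limma-voom, DESeq2 1.42.0, each gene's most counted bin, a replicate block and leaving out each library. The scripts were tested on simulated data, where the share of false gene calls was above the nominal 0.05. Far fewer genes were changed there than were called here, so that share may not hold for these data. Calls near the threshold are the least secure.

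Genes were named by rule: Cdx2 and Gata2, list members called or among the first 4 by p, and 5 most similar symbols each by distance of centred log2 CPM (prior count 2). Other list members named for their role, the neighbours and the pluripotency genes looked up were chosen after values were seen. The members and lists were chosen with earlier results of these data known. Promoter sequences are from RefSeq (GRCm38.p6), with both genes matched by symbol. Values of some list members are not reported here.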

Additional observations from a re-analysis of the deposited data

How the results depend on the processing

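The Gata2 change kept its direction and its side of the threshold under all 13 alternatives run (log2 fold change −0.99 to −0.64). Cdx2 kept its direction under all 12 that gave a value and lost its call under 5. These were DESeq2 (−1.33; adjusted p = 0.0534), the most counted bin alone (−1.46; 0.0550), the replicate block (−1.22; 0.0627), and leaving out wildtype 1 or deleted 1. Over the libraries left out in turn Cdx2 ranged from −2.36 to −0.75. It has no value with at least 10 counts in every library, since deleted 1 had 4. Where 1 deleted library was left, its spread was taken to equal that of wildtype. Symbols called numbered 1152, and 613 to 1252 when 1 library was left out. The Cdx2 to Gata2 ratio difference, −0.52, ranged from −1.38 to 0.32 over the libraries left out, the latter without deleted 1. Exon usage of Gata2 was not called under any alternative run. The lower trophectoderm regulators numbered 4 to 6 and the higher 2 to 4 under all settings, counts added after seeing the data. Whether replicate numbers pair the libraries could not be told. Deviations of same-numbered libraries from their group means correlated at 0.0536 and −0.0539. With 2 deleted libraries the deviations of these are mirror images, so each wildtype library correlates with them at equal size and opposite sign. Wildtype 3 has no partner. With the replicate block 1207 symbols were called. Besides Cdx2 it ended the calls of Smad9 (edgeR adjusted p = 0.0517), Hey1 (0.0656), Slc39a8 (0.0775) and Kcng3 (0.0695). It brought bin 4 of Gata2 (−1.48; 0.0398) past the threshold. Among list genes it did so for the trophectoderm regulator Tfap2a (0.44; 0.0395) and some others. The higher genes moved from 3 to 1 in the BMP list, from 6 to 8 in the blood list and from 3 to 4 among trophectoderm regulators. Causes of these shifts were not tested. Cdx2 rests on 4 to 53 counts per library.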
